A study of Mus musculus with 35 samples.

Results

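The RNA of sgOgfod1 leukemia cells was set against that of sgScramble leukemia cells in mice on the standard amino acid diet that received vehicle. The libraries were taken by their labels alone: 5 sgOgfod1 and 5 sgScramble libraries, each from 1 mouse, which make 10 of the 23 RNA libraries and 10 of the 35 libraries in all. The leukemia was an MLL-AF9 acute myeloid leukemia that carried GFP. Its cells came from a mouse at the end stage of the disease and were grown in culture with SCF, IL-3 and IL-6. Male recipients aged 8 to 10 weeks received these cells through the retro-orbital vein, and vehicle was PBS given into the peritoneum. All 10 mice therefore shared the oncogene, the diet, the vehicle and the route, and the groups differed in the guide: sgOgfod1 is directed at Ogfod1, and sgScramble is a guide without that target. Marrow was freed from crushed leg, hip and arm bones, red cells were lysed with ACK buffer, and viable GFP+ cells were sorted. Smart-seq2, which copies whole polyadenylated transcripts and keeps no strand, was run on 2 µl of each 20 µl lysate. The number of guides and of independent edited clones was not given in the sources used here, so a difference between the groups may be one between the guides' effects or between the cell populations that carried them, and these cannot be told apart. The other RNA libraries came from 6 sgOgfod1 and 7 sgScramble mice on a branched-chain amino acid (BCAA) free diet with 5+3 chemotherapy (5 daily doses of cytarabine, each 100 mg/kg, with doxorubicin, 3 mg/kg, on the first 3 days), and 12 libraries held ribosome footprints.

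Ogfod1 is an oxygenase that uses iron and 2-oxoglutarate to hydroxylate a proline of the small ribosomal subunit protein uS12, encoded by Rps23, at the site where the ribosome reads the codon. In other cells its loss has been linked to slower growth, stress granules and altered translational accuracy. MLL-AF9 is a fusion of a histone methyltransferase with a component of the transcription elongation machinery, and it keeps Hoxa and Meis1 genes switched on in immature myeloid cells.

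The counts assigned to genes came to 37686318 to 56140065 in sgOgfod1 and 31921768 to 63620828 in sgScramble libraries. The first principal component of their log CPM (gene counts scaled to equal library totals) carried 24.3% of the variance and separated the genotypes, from -57.3 to -6.87 in sgOgfod1 and from 14.1 to 42.4 in sgScramble libraries. Library sgScramble replicate 3 stood apart: a count was seen for 38446 genes there, against 24494 to 31013 in the others. It also lay at 54.0 on the second component, where the others ran from -50.1 to 20.3, and pseudogenes took 0.426% of its counts, against 0.332% to 0.377% in the others. Myeloid leukemia genes were abundant in every library. Mpo, a granule enzyme of immature myeloid cells, had 799.8 to 1785 CPM in sgOgfod1 and 370.2 to 829.6 CPM in sgScramble libraries. Kit, the SCF receptor, had 151 to 249 CPM in sgOgfod1 and 224 to 299 CPM in sgScramble libraries. Neither gene passed the test.

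The targeted gene was lower in all sgOgfod1 libraries. Ogfod1 (ENSMUSG00000033009, chromosome 8, 94037198 to 94067921, plus strand, GRCm38) had 12.1, 11.3, 12.5, 9.16 and 12.5 CPM in the 5 sgOgfod1 libraries, against 26.4, 25.2, 21.8, 24.1 and 24.0 CPM in the 5 sgScramble libraries. The groups did not overlap, and the highest sgOgfod1 library lay well under the lowest sgScramble library. The log2 fold change was -1.08 ± 0.11 (SE), with an adjusted p of 6.69e-05 in edgeR's quasi-likelihood test with Benjamini-Hochberg adjustment over 18308 genes, the test behind every adjusted p given here for this comparison. An exact two-sided permutation test of the difference in mean log2(CPM + 0.5), -1.05, gave p = 0.00794, the smallest that the 252 arrangements of 5 against 5 allow. A fit of all 23 RNA libraries that shared 1 spread gave -1.07 with an adjusted p of 0.0846. Ogfod1 footprints averaged 2.42 ± 0.68 CPM in sgOgfod1 and 14.6 ± 0.87 CPM in sgScramble libraries (SD, n = 3 each), a log2 fold change of -2.67 (adjusted p = 2.68e-05, edgeR over 18290 genes in the footprint libraries). Reads of edited transcripts are counted too when they map, and gene-level counts do not show the edit.

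Rps23, whose product carries the modified proline, did not pass the test. Its RNA was at 95.5, 97.6, 91.2, 132 and 96.1 CPM in sgOgfod1 libraries, against 111, 122, 101, 87.7 and 96.6 CPM in sgScramble libraries. The ranges overlapped, and the log2 fold change was -0.02 ± 0.11 (adjusted p = 0.964). In the list of Ogfod1, its substrate and related oxygenases, 1 of 19 genes passed, Ogfod1 itself. Within 500 kb of Ogfod1 lay 32 genes, among them the metallothioneins, of which 17 could be tested. None but Ogfod1 itself passed, with log2 fold changes of the others between -0.93 and 1.63.

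Of 18308 genes tested, 497 (2.71%) passed an adjusted p of 0.05, 314 higher (1.72%) and 183 lower (1.0%) in sgOgfod1 than in sgScramble libraries. An unadjusted p under 0.05 was found for 2942 genes. The higher genes were of low level and large change, with a median mean level of 4.68 CPM and a median log2 fold change of 1.25. The lower genes were more abundant and changed less, with medians of 26.1 CPM and -0.61, beside 11.6 CPM and -0.003 over all genes tested. A log2 fold change of at least 1 was reached by 186 higher and 45 lower genes, and one of at least 2 by 84 higher and 8 lower genes. Groups without overlap were seen for 433 of the 497, where over all genes 2.53% lay wholly higher and 2.2% wholly lower. The 497 were called on these same libraries, so their high share without overlap follows from the choice. In bulk RNA of sorted cells, fewer cells of a type and less RNA per cell cannot be told apart.

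The count of genes leaned on single libraries, and 210 of the 497 passed in all 10 fits that left out 1 library. Leaving out sgOgfod1 replicate 3 gave 321 genes, and leaving out sgScramble replicates 1, 2, 4 or 5 gave 298, 259, 299 or 268. Without sgScramble replicate 3, the library with the most genes detected, 432 genes passed. The fit of all 23 RNA libraries, whose treated mice varied more (a biological coefficient of variation of 0.507, against 0.233 in the 10 vehicle libraries), called 25 genes (0.116% of 21474), 21 higher (0.0978%) and 4 lower (0.0186%). Of these, 24 were among the 497, and all 497 kept their sign in that fit. It takes the vehicle difference from the same 10 vehicle libraries, so the kept signs follow from the design and are no further support.

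**Figure D1:**
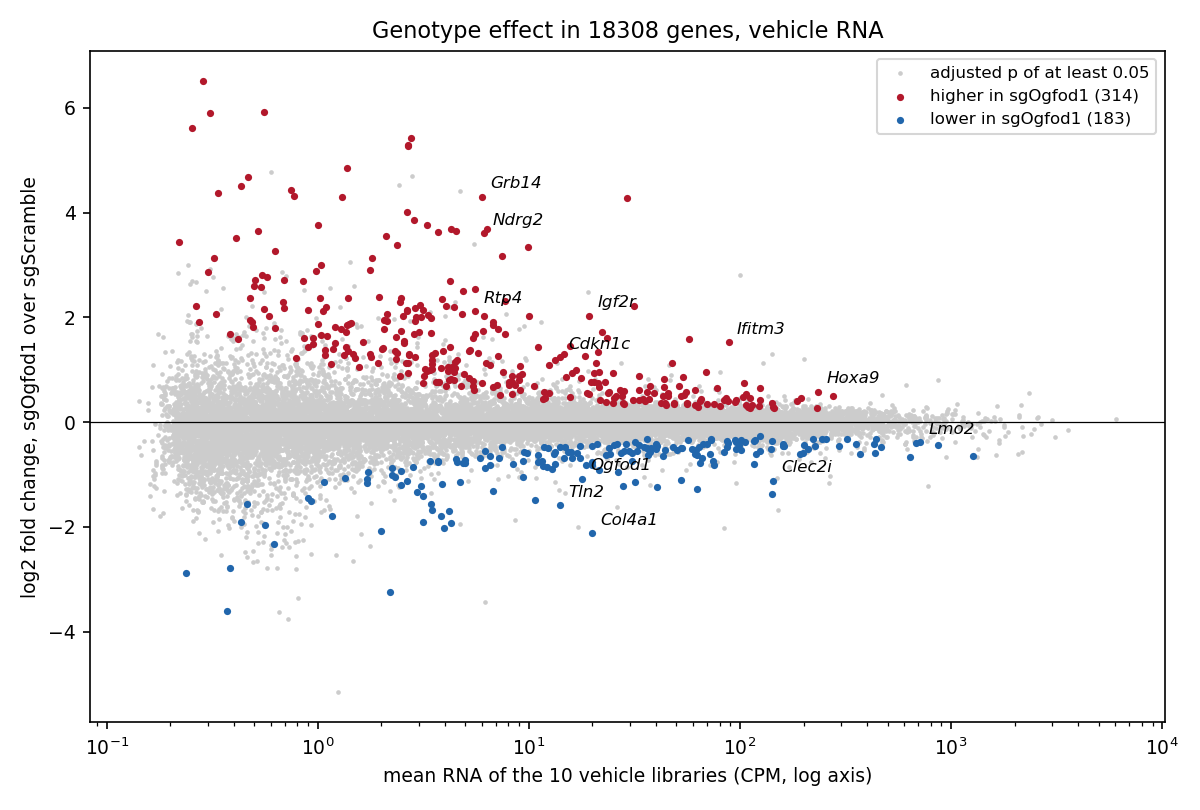
Log2 fold change (sgOgfod1 over sgScramble, y axis) against the mean CPM of the 10 vehicle libraries (x axis, log scale) for 18308 genes, each a point. The 314 genes that passed higher (red) lie mostly at low levels with large changes and the 183 lower genes (blue) at higher levels with smaller changes; the gene names mark examples from the text.

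Among the genes with at least 10 CPM in one group, the largest increases included those of Grb14, Gprasp2, Ndrg2, Six4 and Lhfp. Grb14, an adaptor that binds and damps the insulin receptor, had 13.2, 10.2, 10.1, 12.4 and 11.0 CPM in sgOgfod1 libraries, against 0.533, 0.746, 0.652, 0.694 and 0.226 CPM in sgScramble libraries. It had the smallest p of the genes tested, with a log2 fold change of 4.31 ± 0.25 (adjusted p = 2.92e-07). Six4, a homeobox transcription factor, had 31.2, 9.32, 13.7, 17.6 and 18.1 CPM in sgOgfod1 libraries, against 1.28, 2.33, 2.41, 2.33 and 0.436 CPM in sgScramble libraries, at 3.34 ± 0.47 (adjusted p = 0.00497). For Six4, sgOgfod1 replicate 1 was the highest library and no libraries of the groups overlapped.

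Igf2r, an imprinted receptor that carries IGF2 and lysosomal enzymes to lysosomes, had 33.6, 33.1, 28.9, 26.8 and 32.5 CPM in sgOgfod1 libraries, against 6.33, 5.33, 9.93, 7.52 and 8.66 CPM in sgScramble libraries. The log2 fold change was 2.03 ± 0.15 (adjusted p = 3.76e-06), with little spread inside either group. H2afy2, a macroH2A histone variant, rose by 2.31 ± 0.17 on the log2 scale, and Ndrg2, a tumour suppressor of the NDRG family, by 3.61 ± 0.36. Fam189b (1.85), the receptor tyrosine kinase Axl (1.79), and the granulocyte antigen Ly6g (1.73) rose too, and each passed in all 10 fits that left out 1 library. Gprasp2 rose by 3.69 ± 0.60, with 30.8 CPM in sgOgfod1 replicate 1 against 2.72 to 9.42 CPM in the other sgOgfod1 libraries and 0.784 to 1.13 CPM in sgScramble libraries.

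Among called protein-coding genes with at least 10 CPM in one group, Col4a1, Tln2 and Aqp9 fell the most. Col4a1, a chain of basement membrane collagen, had 9.13, 8.94, 8.87, 2.42 and 7.88 CPM in sgOgfod1 libraries, against 26.8, 34.9, 26.4, 32.3 and 42.0 CPM in sgScramble libraries, a log2 fold change of -2.12 ± 0.31 (adjusted p = 0.00497). Tln2, a talin that links integrins to actin, had 9.01, 6.01, 3.92, 4.58 and 11.5 CPM in sgOgfod1 libraries, against 13.4 CPM in sgScramble replicate 2 and 21.6 to 24.1 CPM in the other 4 sgScramble libraries, at -1.59 ± 0.29 (adjusted p = 0.0149). The nearest libraries were 11.5 CPM in sgOgfod1 replicate 5 and 13.4 CPM in sgScramble replicate 2. Hgf, the ligand of the Met receptor, had 20.5, 22.7, 12.3, 21.8 and 22.1 CPM in sgOgfod1 libraries, against 40.8, 50.6, 39.3, 39.9 and 48.0 CPM in sgScramble libraries, at -1.14 ± 0.15 (adjusted p = 0.00057).

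Aqp9, a channel for water and glycerol, fell by 1.49 ± 0.22 on the log2 scale, and Itgb3, an integrin beta chain, by 1.22 ± 0.20. Clec2i, a C-type lectin, averaged 90.3 ± 19.6 CPM in sgOgfod1 and 195 ± 31.04 CPM in sgScramble libraries, at -1.11 ± 0.15. These 3 genes passed in all 10 fits that left out 1 library. Eml5 (-1.37, 7 of the 10 fits), Tctex1d1 (-1.27, 4 of 10), Mogat2 (-1.11, 1 of 10) and Hist1h1c (-0.90, 3 of 10) were less firm, and the rest of the 12 by the rule were Ogfod1 and C1rl (-0.90, all 10 fits). Hist1h1c RNA averaged 8.95 CPM in sgOgfod1 and 16.6 CPM in sgScramble libraries. Its footprints averaged 791 CPM in sgOgfod1 and 852 CPM in sgScramble libraries and did not pass, at -0.11 (edgeR adjusted p = 0.723).

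The most abundant called genes changed by less. Lmo2, a partner of Tal1 and Gata factors in progenitors, had 693, 554, 630.2, 601 and 615 CPM in sgOgfod1 libraries, against 887, 854, 749, 760.4 and 778 CPM in sgScramble libraries, a log2 fold change of -0.38 ± 0.08 (adjusted p = 0.0173). Its call was lost in 3 of the 10 fits that left out 1 library, with a highest adjusted p of 0.0597. Glipr1 fell by 0.67 ± 0.11, Ankrd28, a regulatory subunit of protein phosphatase 6, by 0.44 ± 0.08, Gatm, the first enzyme of creatine synthesis, by 0.40 ± 0.08, and Sgk3 by 0.47 ± 0.10 (6 of the 10 fits). On the other side stood Sorl1, a sorting receptor, at 0.49 ± 0.10, Tmbim6, an inhibitor of cell death in the endoplasmic reticulum, at 0.45 ± 0.09, Slc25a12, the mitochondrial aspartate-glutamate carrier, at 0.40 ± 0.08, and Fignl1 at 0.26 ± 0.06, which passed in 1 of the 10 fits.

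**Figure D2:**
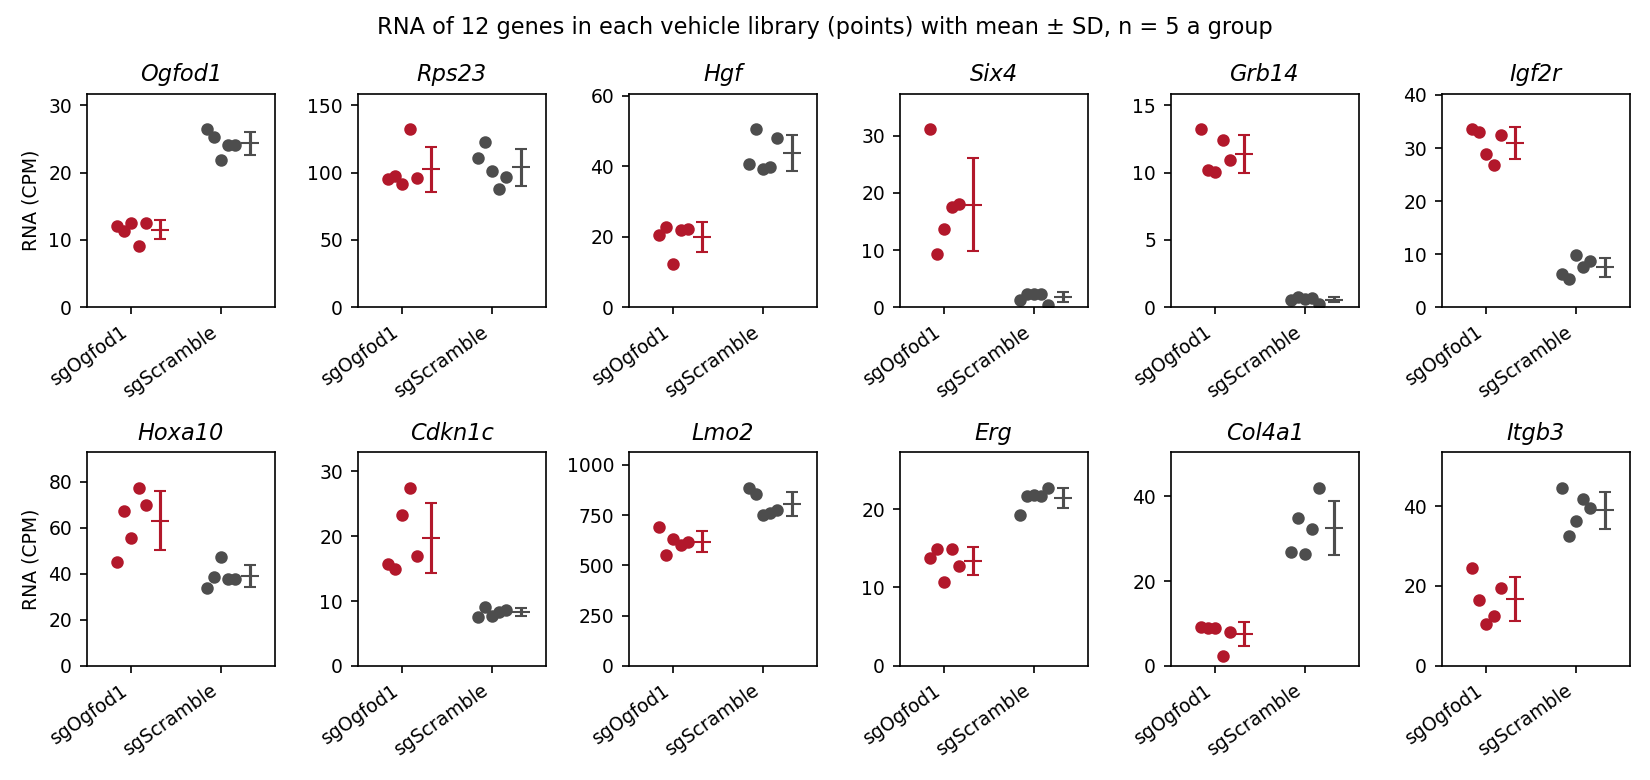
RNA level (CPM, y axis from 0) of 12 genes in each vehicle library (points), with mean ± SD of the 5 sgOgfod1 libraries (left, red) and the 5 sgScramble libraries (right, grey). The groups are apart in every panel except Rps23 and, narrowly, Hoxa10, where 45.3 CPM in sgOgfod1 replicate 1 lies under 47.2 CPM in sgScramble replicate 3.

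Genes were then read by list, and each count stands beside 1.72% of all genes higher and 1.0% lower. Of 37 tested genes in the list of MLL-AF9 targets and progenitor genes, 3 rose and 5 fell, with a median log2 fold change of -0.13 beside -0.003 over all genes tested. Hoxa10 and Hoxa9 were among the 3 that rose. Hoxa10, a homeobox gene of the MLL programme, had 45.3, 67.2, 55.6, 77.5 and 70.1 CPM in sgOgfod1 libraries, against 33.7, 38.8, 47.2, 37.97 and 37.98 CPM in sgScramble libraries, at 0.69 ± 0.13 (adjusted p = 0.0122). Hoxa9, its neighbour and the best known MLL-AF9 target, averaged 282 ± 59.5 CPM in sgOgfod1 and 188 ± 24.3 CPM in sgScramble libraries, at 0.58 ± 0.14 (adjusted p = 0.0438). Hoxa9 passed in 1 of the 10 fits that left out 1 library, and its annotation lies 108 bases from that of Hoxa10, so reads of shared transcripts may be assigned to either gene. Meis1, their cofactor, did not pass (-0.18 ± 0.10, adjusted p = 0.386).

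The 5 that fell were Erg, Lmo2, Bcl2, Cd93 and Hoxa2. Erg, an ETS factor of stem cells, had 13.7, 14.9, 10.7, 14.9 and 12.8 CPM in sgOgfod1 libraries, against 19.3, 21.7, 21.9, 21.6 and 22.7 CPM in sgScramble libraries, at -0.68 ± 0.11 (adjusted p = 0.00251). Bcl2, which blocks the mitochondrial path of cell death, averaged 48.9 ± 10.5 CPM in sgOgfod1 and 75.7 ± 4.75 CPM in sgScramble libraries, at -0.63 ± 0.13 (adjusted p = 0.0177, 8 of the 10 fits). In the BCL2 family 1 of 17 genes, Bcl2a1a, rose, and only Bcl2 fell. Cd93, a surface marker of MLL leukemia stem cells, fell by 0.51 ± 0.12 (2 of 10 fits), and Hoxa2 by 1.15 ± 0.28 at about 1 CPM (3 of 10). Of 27 progenitor and growth factor receptors, Igf2r rose and Cd93 and Tgfbr2 fell.

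Of 14 imprinted genes tested, 3 rose and none fell, where 1.72% of all genes rose and 1.0% fell. Of the 14 estimates 6 were positive and 8 negative, at a list median of -0.05. The 3 that rose were Igf2r, Cdkn1c and Ascl2. Cdkn1c, an inhibitor of cyclin-dependent kinases, had 15.8, 15.0, 23.3, 27.5 and 17.0 CPM in sgOgfod1 libraries, against 7.61, 9.13, 7.76, 8.36 and 8.66 CPM in sgScramble libraries, at 1.24 ± 0.16 (adjusted p = 0.00046). Among 15 D cyclins, Cdk4/6 and their inhibitors it was the only call. Ascl2 averaged 4.13 ± 1.23 CPM in sgOgfod1 and 2.24 ± 0.33 CPM in sgScramble libraries (4 of the 10 fits). Gm44732, an antisense transcript inside Cdkn1c, rose with it, and the reads of the pair cannot be told apart without strand.

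Of 21 integrins, Itga6 and Itgb3 fell and Itga8 rose, at a list median of -0.07 beside -0.003 over all genes tested. Itgb3 had 24.5, 16.4, 10.6, 12.4 and 19.4 CPM in sgOgfod1 libraries, against 44.6, 32.6, 36.3, 41.7 and 39.5 CPM in sgScramble libraries. Itga6, a laminin receptor chain, fell by 0.74 ± 0.12 to a mean of 55.6 CPM in sgOgfod1, against 92.7 CPM in sgScramble libraries. Of 22 matrix genes, 3 fell (Col4a1, Emilin1 and Ecm1, which passed in 3 of the 10 fits that left out 1 library) and none rose, at a median of -0.10, where 1.0% of all genes fell. The summed level of the matrix list overlapped, at 2327 to 3316 CPM in sgOgfod1 and 2850 to 3343 CPM in sgScramble libraries. Itgb3 is also the 1 called marker of 7 tested for megakaryocytes and platelets, and 10 of those 14 markers averaged under 1 CPM. The summed level of that list was 21.1 to 35.8 CPM in sgOgfod1 and 48.2 to 59.6 CPM in sgScramble libraries. Most of these sums was Itgb3 itself, at means of 16.7 CPM in sgOgfod1 and 39.0 CPM in sgScramble libraries. The part of megakaryocytes and platelets in the integrin result was not tested.

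**Figure D3:**
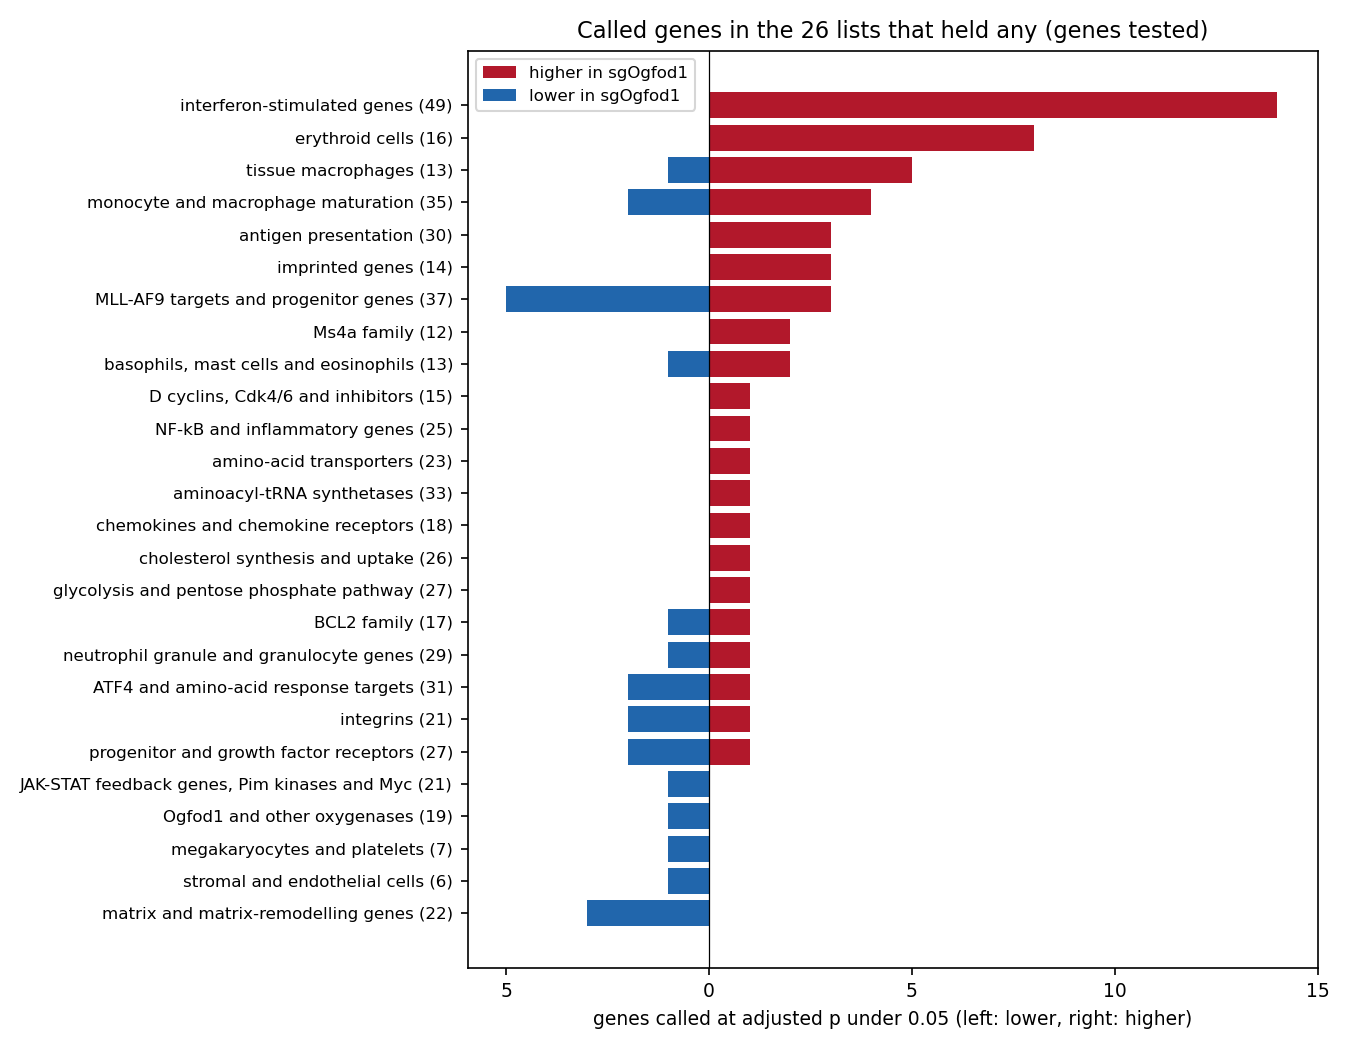
Number of genes that passed an adjusted p of 0.05 (x axis) in the 26 lists that held any, with the genes tested in brackets; bars to the right count genes higher and bars to the left genes lower in sgOgfod1 than in sgScramble libraries. The interferon list has 14 higher of 49 and no lower gene, the erythroid list 8 of 16, and the list of MLL-AF9 targets 3 higher and 5 lower of 37.

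Of 49 genes induced by interferon, 14 rose and none fell, where 1.72% of all genes rose. The other 35 did not pass. Of the 49, 45 had a positive estimate, and the median log2 fold change was 0.43. The 14 were Ifi204, Rtp4, Ifit3, Ifit3b, Ifit1bl1, Oas2, Oasl2, Irgm1, Irf7, Ifi27l2a, Oas3, Oas1g, Gbp7 and Ddx58. Summed over these 14, the level was 254, 281.7, 341, 196 and 295.9 CPM in sgOgfod1 libraries, against 140.0, 146.7, 158.6, 178.7 and 141 CPM in sgScramble libraries. The 14 were chosen for being higher in these same libraries, so a higher sum follows from the choice. Over the whole list the sums overlapped, at 944 to 1442 CPM in sgOgfod1 and 942 to 1112 CPM in sgScramble libraries. Members of the Ifit, Oas, Gbp and Ifi200 families are near-identical neighbours, and the split of reads among them is uncertain.

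Rtp4, a chaperone of receptors induced by interferon, had 6.26, 9.53, 11.7, 7.03 and 10.9 CPM in sgOgfod1 libraries, against 1.25, 1.36, 2.35, 3.16 and 2.21 CPM in sgScramble libraries, at 2.12 ± 0.26 (adjusted p = 0.00035). Ifi204, a sensor of DNA, had 6.97, 8.38, 10.5, 6.45 and 14.3 CPM in sgOgfod1 libraries, against 2.66, 3.02, 3.38, 2.56 and 2.23 CPM in sgScramble libraries, at 1.75 ± 0.21 (adjusted p = 0.000291). Ifit3, an antiviral protein that binds other IFIT members, was low in both groups, with 1.18 to 3.45 CPM in sgOgfod1 and 0.279 to 0.597 CPM in sgScramble libraries, at 2.37 ± 0.36. Irf7, a transcription factor of the type I interferon response, had 19.5, 24.8, 29.2, 14.7 and 23.7 CPM in sgOgfod1 libraries, against 11.6, 9.19, 10.0, 16.2 and 8.71 CPM in sgScramble libraries, at 1.01 ± 0.20 (adjusted p = 0.0173, 8 of the 10 fits). For Irf7 the groups met, since sgOgfod1 replicate 4 lay below sgScramble replicate 4. The same sgOgfod1 library was the lowest of its group in the sum of the 14 genes.

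The core of the interferon-stimulated response element, spelled GAAA, any 2 bases and GAAA again, was searched on both strands of RefSeq promoters (GRCm38.p6, 250 bases before to 50 after the gene's start), which were matched by symbol for 322 of the 439 called protein-coding genes. It was held by 80% of the called interferon genes with a promoter (8 of 10), 48% of the list's uncalled genes (12 of 25), 10.8% of all genes called higher (23 of 213), 0.917% of those called lower (1 of 109) and 3.17% of all 10107 promoters. A few such promoters are shown because they carry this core before genes of the called group; they were picked after the values were seen. A match is a description, not a site or a cause. Capitals mark the match on either strand, and each sequence runs along the strand of its gene.
Ifit3 (chr19:34583279-34583578, plus strand): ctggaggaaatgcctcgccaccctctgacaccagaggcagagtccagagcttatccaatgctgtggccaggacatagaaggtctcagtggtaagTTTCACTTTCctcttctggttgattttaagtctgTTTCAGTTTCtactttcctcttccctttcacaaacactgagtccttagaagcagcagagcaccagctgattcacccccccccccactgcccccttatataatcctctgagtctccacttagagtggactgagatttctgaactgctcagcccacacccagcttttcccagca
Oas3 (chr5:120777610-120777909, minus strand): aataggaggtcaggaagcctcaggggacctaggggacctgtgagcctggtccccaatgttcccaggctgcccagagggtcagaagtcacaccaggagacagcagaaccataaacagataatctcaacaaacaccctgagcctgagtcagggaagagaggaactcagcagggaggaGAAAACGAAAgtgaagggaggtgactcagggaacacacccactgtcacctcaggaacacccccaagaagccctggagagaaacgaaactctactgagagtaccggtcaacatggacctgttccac
Slfn5 (chr11:82951852-82952151, plus strand): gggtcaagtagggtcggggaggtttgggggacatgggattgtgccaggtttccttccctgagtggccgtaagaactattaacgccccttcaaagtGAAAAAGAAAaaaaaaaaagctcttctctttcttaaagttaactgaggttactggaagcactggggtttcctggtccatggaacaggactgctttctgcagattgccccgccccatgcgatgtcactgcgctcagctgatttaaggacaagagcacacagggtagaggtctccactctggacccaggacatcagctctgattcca
Ifit3 holds the core at 2 places, Oas3 and Slfn5 at 1 each. Oas3 had 25.4, 32.9, 28.7, 15.9 and 29.8 CPM in sgOgfod1 libraries, against 13.7, 17.9, 16.3, 18.1 and 17.0 CPM in sgScramble libraries, at 0.67 ± 0.16, and sgOgfod1 replicate 4 again lay in the range of sgScramble. Slfn5, which is induced by interferon but is no member of the list, had 28.2, 31.8, 36.7, 16.4 and 38.8 CPM in sgOgfod1 libraries, against 8.84, 13.2, 11.9, 16.7 and 8.97 CPM in sgScramble libraries, at 1.34 ± 0.24. Its antisense partner Slfn5os overlaps it and rose by 1.37, and the pair cannot be told apart without strand. Ifitm3, which restricts viral entry and also holds the core, averaged 131 ± 34.8 CPM in sgOgfod1 and 45.5 ± 6.72 CPM in sgScramble libraries, at 1.53 ± 0.19, and was named after its values were seen.

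Targets of ATF4, the factor that answers a lack of amino acids, did not move in 1 direction. Of 31 tested, Asns rose and Pck2 and Trib3 fell, at a median of -0.03. Asns, asparagine synthetase, had 161, 145, 133, 209 and 116 CPM in sgOgfod1 libraries, against 104, 100.4, 95.7, 93.0 and 90.6 CPM in sgScramble libraries, at 0.66 ± 0.13 (adjusted p = 0.012). Pck2, the mitochondrial phosphoenolpyruvate carboxykinase, had 29.6, 24.3, 27.3, 21.5 and 28.9 CPM in sgOgfod1 libraries, against 42.8, 36.6, 37.5, 42.1 and 32.8 CPM in sgScramble libraries, at -0.54 ± 0.10 (adjusted p = 0.0112). Neither gene's groups overlapped, and the opposite directions stood side by side in the same libraries. Trib3, a pseudokinase that feeds back on ATF4, was under 0.3 CPM in all sgOgfod1 libraries and 0.308 to 1.32 CPM in sgScramble libraries (-1.91 ± 0.47, 1 of the 10 fits). The letters TGATGNAA of the C/EBP-ATF response element were searched in the same way and stood in 2.47% of all promoters, 4.69% of those called higher and 4.59% of those called lower. The promoters of Asns and Pck2 are shown because the letters stand in both while the RNA differed in direction.
Asns (chr6:7693160-7693459, minus strand): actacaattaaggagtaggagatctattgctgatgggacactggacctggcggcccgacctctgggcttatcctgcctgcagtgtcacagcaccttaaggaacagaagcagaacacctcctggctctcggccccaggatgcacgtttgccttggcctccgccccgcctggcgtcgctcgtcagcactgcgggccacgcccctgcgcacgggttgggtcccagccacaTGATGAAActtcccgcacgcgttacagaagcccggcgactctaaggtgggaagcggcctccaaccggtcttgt
Pck2 (chr14:55540016-55540315, plus strand): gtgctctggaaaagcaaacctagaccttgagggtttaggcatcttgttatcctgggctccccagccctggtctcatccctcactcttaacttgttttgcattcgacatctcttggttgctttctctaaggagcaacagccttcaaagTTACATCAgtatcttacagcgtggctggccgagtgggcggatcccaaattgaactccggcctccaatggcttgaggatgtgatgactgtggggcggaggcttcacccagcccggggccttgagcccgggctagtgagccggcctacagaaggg

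The translation machinery held next to no calls, where 2.71% of all genes passed, a share at which short lists hold few. In simulated data 32.8% of genes changed by 0.5 on the log2 scale were called. A list without calls may therefore still hold small changes. None of 81 cytosolic ribosomal protein genes passed, at a median log2 fold change of 0.03, and none of 17 stress granule genes, 34 initiation factors, 22 elongation and termination factors or 46 ribosome biogenesis genes. Of 33 aminoacyl-tRNA synthetases 1 rose, Farsb at 0.26 ± 0.07 (1 of the 10 fits), and of 23 amino acid transporters 1 rose, Slc43a1, a carrier of large neutral amino acids, with 1.83 to 4.81 CPM in sgOgfod1 and 0.0940 to 1.18 CPM in sgScramble libraries (6 of the 10 fits). No gene passed among 24 of branched-chain amino acid catabolism, 36 of mTORC1 and amino acid sensing, 26 of the unfolded protein response, 36 targets of p53, 51 of mitosis, 44 of DNA replication or 32 of DNA repair. In several of these lists most estimates were positive although next to none passed. This held for 42 of 46 ribosome biogenesis genes (median 0.17), whose summed level was 6055 to 7572 CPM in sgOgfod1 and 5713 to 5978 CPM in sgScramble libraries. It also held for 40 of 44 DNA replication genes (median 0.13), 12 of 14 regulators of eIF2 (0.14), 28 of 33 aminoacyl-tRNA synthetases (0.07), 69 of 75 nuclear genes of oxidative phosphorylation (0.13) and 69 of 75 mitochondrial ribosomal proteins (0.14). The sums of the eIF2 regulators were apart too, at 1311 to 1345 CPM in sgOgfod1 and 1162 to 1305 CPM in sgScramble libraries. Those of the other lists in that sentence overlapped. For oxidative phosphorylation they were 10956 to 12481 CPM in sgOgfod1 and 9952 to 12068 CPM in sgScramble libraries. In each of these lists, ribosome biogenesis included, sgOgfod1 replicate 4 had the highest sum of its group.

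Of 16 erythroid markers tested, 8 rose and none fell, where 1.72% of all genes rose. The other 8 did not pass, and the median log2 fold change was 2.64. Hbb-bs, an adult beta globin, had 6.50, 9.16, 12.7, 3.90 and 9.71 CPM in sgOgfod1 libraries, against 0.689, 0.541, 0.415, 1.33 and 0.348 CPM in sgScramble libraries, at 3.64 ± 0.41 (adjusted p = 0.00046). Car2, a carbonic anhydrase, had 1.96 to 5.87 CPM in sgOgfod1 and 0.174 to 0.524 CPM in sgScramble libraries, at 3.56 ± 0.38, and Hba-a1 rose by 2.69 ± 0.40. Tfrc, the transferrin receptor and the abundant member, averaged 143 ± 18.4 CPM in sgOgfod1 and 107 ± 4.18 CPM in sgScramble libraries, at 0.42 ± 0.09 (8 of the 10 fits). Of the 16 markers, 11 averaged under 1 CPM and none was at 0 in all 10 libraries. The list summed to 146 to 188 CPM in sgOgfod1 and 106 to 116 CPM in sgScramble libraries, and most of these sums was Tfrc. The globin copies share reads, so their split is uncertain. Footprints of the globins did not pass: those of Hbb-bs averaged 18.2 ± 7.24 CPM in sgOgfod1 and 14.8 ± 13.1 CPM in sgScramble libraries (SD, n = 3 each), at a log2 fold change of 0.31 (edgeR adjusted p = 0.843), and those of Hba-a1 gave 0.17 (edgeR adjusted p = 0.922). Of the 8 genes, 7 had footprint values, all positive at a median of 0.31, and only Tfrc passed there. Under treatment 3 of the 8 could be tested, 1 had the same direction, and none passed. Red cells had been lysed and GFP+ cells sorted, and the part of other cells or of free RNA in the result was not tested.

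Macrophage genes split. Of 13 tested markers of tissue macrophages, Axl, Mrc1, C1qa, C1qb and C1qc rose and Adgre1 fell, at a median of 1.15. Over all genes 1.72% rose and 1.0% fell. Mrc1, the mannose receptor, had 4.40, 5.76, 5.97, 6.32 and 4.86 CPM in sgOgfod1 libraries, against 1.25, 0.708, 1.26, 1.33 and 2.33 CPM in sgScramble libraries, at 1.98 ± 0.26 (adjusted p = 0.00046). C1qc, a chain of complement C1q, had 3.08, 4.94, 5.39, 5.54 and 5.57 CPM in sgOgfod1 libraries, against 2.85, 1.34, 1.90, 2.497 and 1.46 CPM in sgScramble libraries, at 1.29 ± 0.24 (adjusted p = 0.00802). In each of these genes all sgOgfod1 libraries were higher. Adgre1, the F4/80 antigen and with Vcam1 and Slc40a1 one of the abundant members, had 320.1, 299, 306, 243 and 297 CPM in sgOgfod1 libraries, against 461, 481, 381, 422 and 496 CPM in sgScramble libraries, at -0.61 ± 0.09 (adjusted p = 0.00147). Over the whole list the sums overlapped, at 752 to 1119 CPM in sgOgfod1 and 983 to 1362 CPM in sgScramble libraries. Of its 16 markers, 3 (Vsig4, Timd4 and Marco) averaged under 1 CPM. In the list of monocyte maturation Clec4a1, Ms4a7 and Fcgr1 rose beside Mrc1, and Cd14, the endotoxin coreceptor, fell beside Adgre1.

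**Figure D4:**
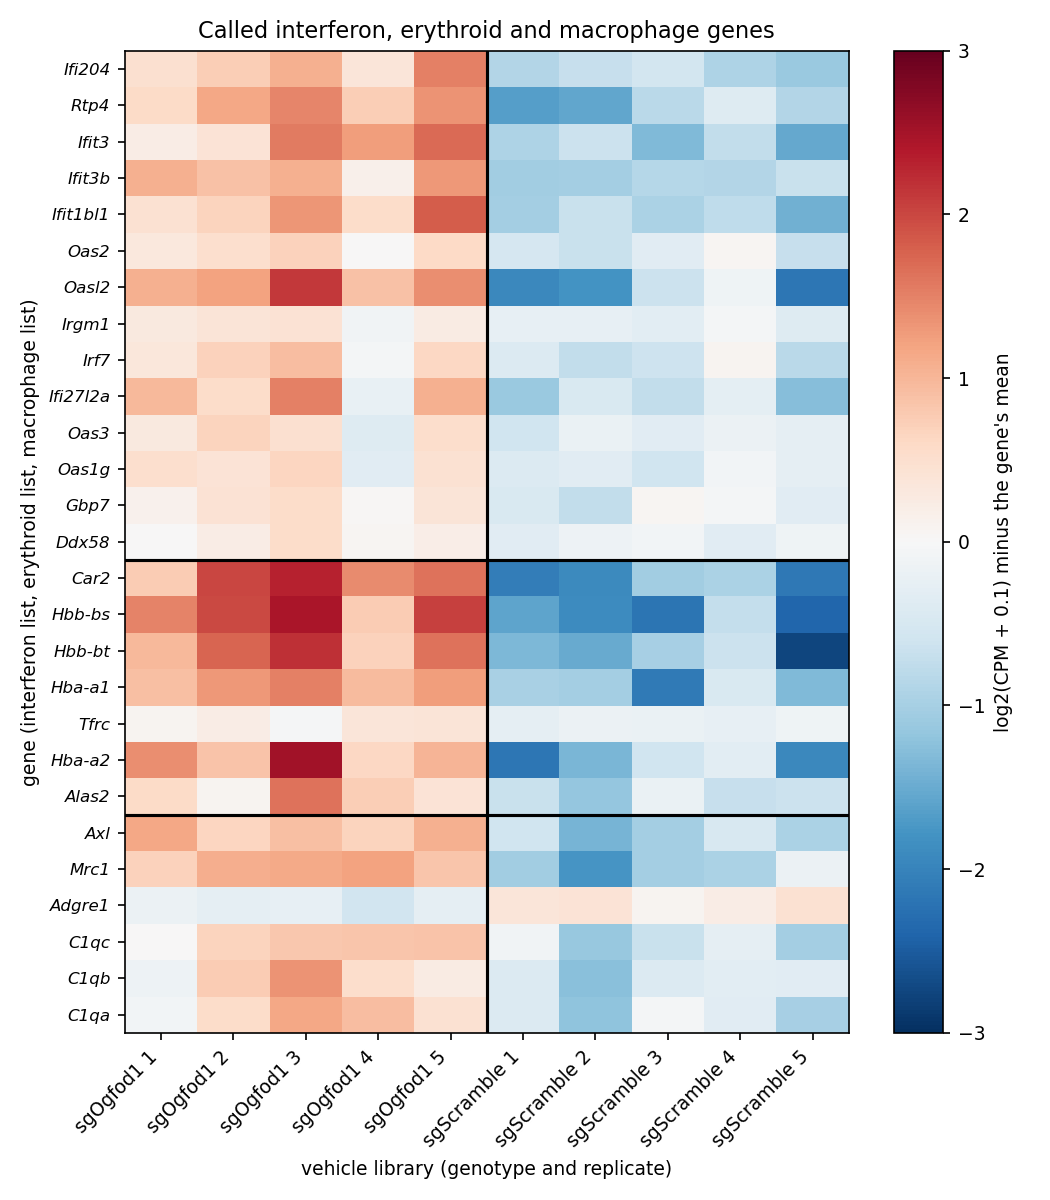
Level of called interferon genes (top), erythroid markers (middle) and macrophage markers (bottom) in each of the 10 vehicle libraries, sgOgfod1 left and sgScramble right; colour is log2(CPM + 0.1) minus the gene's mean. The rows were chosen by their calls in these same libraries. The sgOgfod1 libraries are higher in nearly every row except Adgre1, and sgOgfod1 replicate 4 is the palest of its group for several interferon genes.

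Other cell types showed few calls. None of 7 tested T and NK cell markers passed, 18 of their 20 markers averaged under 1 CPM, and none of 10 dendritic cell markers passed. None of 14 B and plasma cell markers passed either, with 12 estimates positive and 2 negative, at a median of 0.62. Of their 18 markers, 11 averaged under 1 CPM. Their sums overlapped, at 101 to 281 CPM in sgOgfod1 and 136 to 197 CPM in sgScramble libraries. Of 6 stromal and endothelial markers Pecam1 fell, by 0.51 ± 0.08 at 78.5 CPM in sgOgfod1 and 112 CPM in sgScramble libraries, and 14 of those 19 averaged under 1 CPM. Antigen presentation held 3 higher genes of 30, H2-Aa, H2-Q7 and Cd74, the chaperone of class II molecules, which averaged 16.1 ± 7.31 CPM in sgOgfod1 and 3.95 ± 1.89 CPM in sgScramble libraries (2.03 ± 0.44, 4 of the 10 fits). H2-Aa passed in 5 and H2-Q7 in 2 of the 10 fits. The H2-Q7 groups overlapped, at 0.530 to 4.38 CPM in sgOgfod1 and 0.366 to 0.786 CPM in sgScramble libraries. H2-Q7 footprints did not pass, at 0.09 (edgeR adjusted p = 0.774). Basophil, mast cell and eosinophil markers were uneven between mice: their sum was 302 to 1550 CPM in sgOgfod1 and 660 to 849 CPM in sgScramble libraries. Cpa3, a mast cell and basophil protease, had 9.88, 177, 9.52, 638 and 36.4 CPM in sgOgfod1 libraries, against 19.0 to 29.2 CPM in sgScramble libraries. It did not pass (adjusted p = 0.294), with sgOgfod1 replicates 2 and 4 far above and replicates 1 and 3 below every sgScramble library. Prss34 rose by 5.43 ± 1.09, with 0.509 to 15.1 CPM in sgOgfod1 and 0 to 0.375 CPM in sgScramble libraries (5 of the 10 fits). Ccr3 rose by 1.63 ± 0.34 (8 of the 10 fits), and Siglecf, an eosinophil and myeloid receptor, fell by 0.80 ± 0.10 (adjusted p = 0.000291).

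The same genes were then followed in 6 footprint libraries, which carry the numbers of 6 of the same mice, and in the RNA of the 13 treated mice, which the vehicle comparison did not use. Of the genes called higher in vehicle RNA, 232 of 240 with footprint values (96.7%) had a positive footprint estimate, and of those called lower 123 of 139 (88.5%) a negative one. Among uncalled genes the shares were 61.8% and 65.8%. Footprints and RNA of a mouse come from 1 lysate, so this is another readout and not other mice. The footprint fit called 331 genes (1.81%), 166 higher (0.908%) and 165 lower (0.902%). Among the 379 called RNA genes, 25 higher and 25 lower ones passed there in the same direction and 1 in the other, with Ogfod1, Igf2r, Grb14, Hgf and Itgb3 among those in the same direction. Igf2r footprints averaged 49.2 ± 2.90 CPM in sgOgfod1 and 10.7 ± 2.55 CPM in sgScramble libraries (SD, n = 3 each), a log2 fold change of 2.22.

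In the treated mice the shares were smaller. Of the genes called higher under vehicle, 211 of 306 (69.0%) were higher in treated sgOgfod1 than in treated sgScramble libraries, and of those called lower 144 of 182 (79.1%) were lower, beside 55.5% and 58.8% of uncalled genes. Treated sgScramble replicate 4 and treated sgOgfod1 replicate 3 stood apart there, at 129.9 and 52.2 on a first component where the other libraries lay between -36.6 and 13.8. Without them the shares were 72.5% and 80.9%. The treated fit called 13 genes (0.0689% of 18881), 9 higher (0.0477%) and 4 lower (0.0212%), or 39 without those libraries. Of the 13, 6 were also called under vehicle, all in the same direction, among them Nme9, Ryr2, Cdkn1c, C2cd4a and Amer2. Cdkn1c averaged 57.4 ± 27.4 CPM in treated sgOgfod1 and 9.76 ± 3.89 CPM in treated sgScramble libraries (SD, n = 6 and 7), at 2.56 (adjusted p = 0.00877). Grb14 did not pass under treatment, at 0.93.

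Ryr2, a calcium release channel named here for being called under both conditions, had 0.346, 0.263, 0.813, 0.520 and 0.173 CPM in vehicle sgOgfod1 libraries, against 2.98, 3.23, 4.38, 3.78 and 5.51 CPM in vehicle sgScramble libraries. Its log2 fold change was -3.25 ± 0.35 under vehicle (adjusted p = 0.000111) and -3.96 under treatment (adjusted p = 0.00146). Ryr2 footprints did not pass, at 0.00 ± 0.45.

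The estimates of the interferon genes and of the macrophage genes that rose did not keep their direction under treatment. None of the 14 interferon genes had a positive estimate there, with a median of -0.77, and none of the 5 macrophage genes that rose, with a median of -1.32. None of these genes passed in the treated fit. An unadjusted p under 0.05 (edgeR) with a negative estimate was found for 0 of the 14 and 1 of the 5. Summed over the 14 interferon genes, the level was 188 to 458 CPM in treated sgOgfod1 and 175 to 897 CPM in treated sgScramble libraries. Summed over the 5 macrophage genes it was 36.8 to 528 CPM in treated sgOgfod1 and 52.0 to 1672 CPM in treated sgScramble libraries, beside 24.7 to 33.3 CPM in vehicle sgOgfod1 and 5.97 to 11.4 CPM in vehicle sgScramble libraries. The treated libraries were thus spread widely, and treated sgScramble replicate 4 was the highest in both sums. Without the pair of libraries that stood apart, 4 of the 14 interferon genes and none of the 5 macrophage genes had a positive estimate. That fit kept treated sgScramble replicates 6 and 7, at 791 and 859 CPM in the macrophage sum. Replicates 1, 2, 3 and 5 of that group lay at 52.0 to 104 CPM. In the interferon sum replicate 7 was at 660 CPM, and the part of these libraries in the estimates was not tested. The difference between the genotype effects (treatment minus vehicle) had an unadjusted p under 0.05 for 11 of the 14 and for 5 of the 5. This held for 975 of 21474 genes in all. The 14 and the 5 were chosen by vehicle values that enter this difference, which favours a negative difference. Their shares are therefore no test of a change with treatment. No gene passed that interaction test after adjustment in edgeR, and 18 did in DESeq2, among them Ifit3, Oasl2 and Rtp4. Of the 8 genes of the MLL-AF9 list called under vehicle, all had the same sign under treatment, and none passed there.

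**Figure D5:**
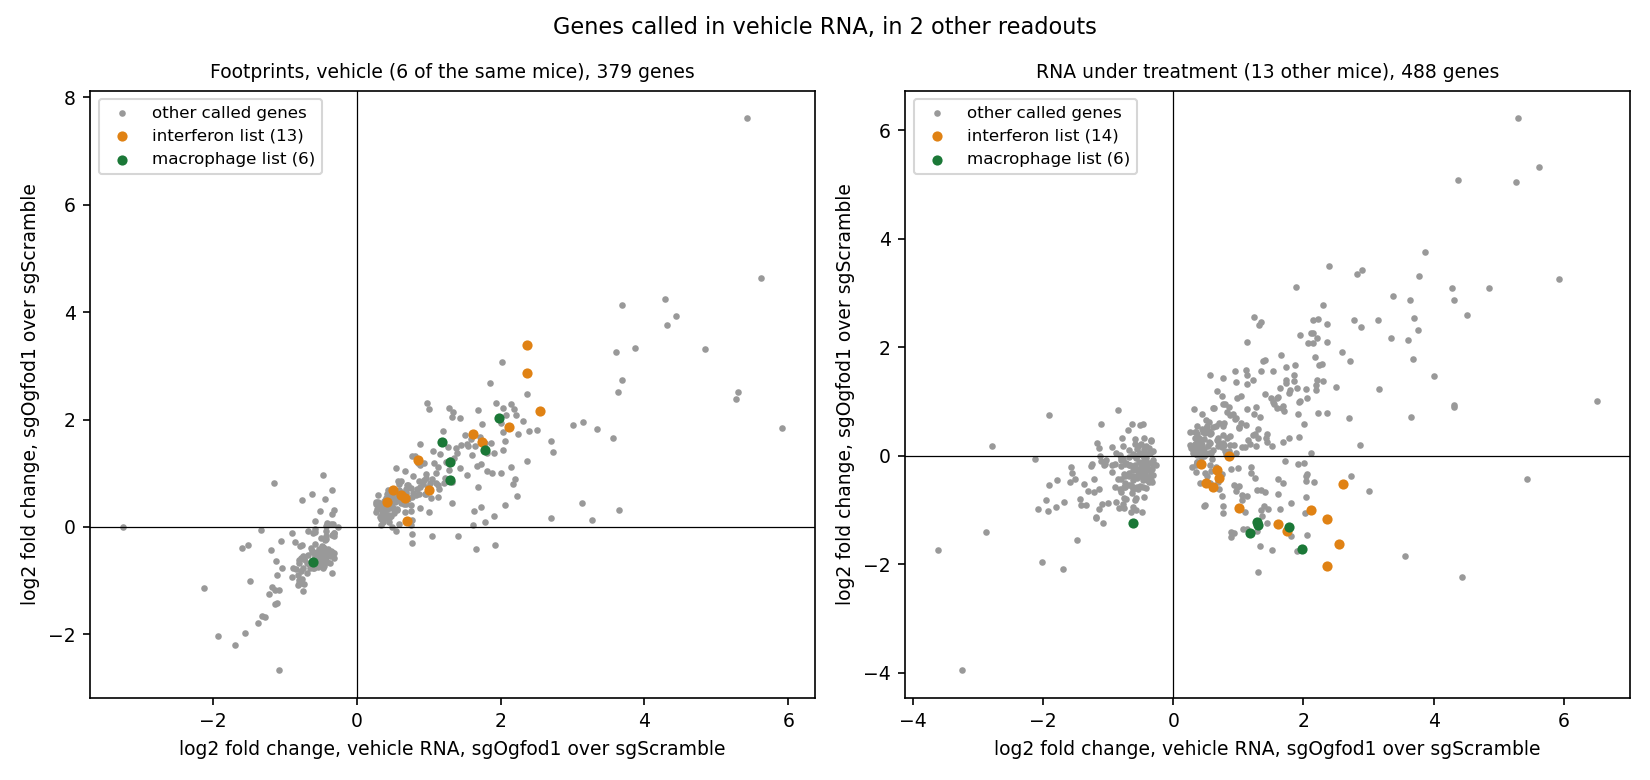
Log2 fold change (sgOgfod1 over sgScramble) of genes called in vehicle RNA (x axis) against the same in footprints of 6 of these mice (left, 379 genes) and in RNA of the 13 treated mice (right, 488 genes). In footprints all 13 interferon genes (orange) lie above 0, and under treatment all 14 lie at or below it, as do the 6 macrophage genes (green).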

How the data were processed

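Gene counts as deposited are whole numbers per Ensembl gene, not normalized. The submitters' processing notes list featureCounts, STAR, Bowtie2, SAMtools and cutadapt, and GRCm38/mm10; the annotation release and strand setting are not given in the sources used here. Of 55487 genes listed, 55227 were named from the GENCODE annotation of GRCm38 given for this work.

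Counts of the 10 vehicle RNA libraries (31921768 to 63620828 each, so that 1 CPM stands for about 31.9 to 63.6 counts) were filtered by group with filterByExpr, scaled by TMM and tested with robust quasi-likelihood in edgeR 4.0.16 (R 4.3.3), with Benjamini-Hochberg adjustment and a threshold of 0.05. CPM values use the scaled library sizes. Treated RNA had its own fit; the interaction and the footprints used all 4 groups of their kind. SE is the log2 fold change over the root of its F value. Alternatives were DESeq2 1.42.0, limma voom 3.58.1, RLE scaling, other filters, a 4-group fit, a replicate block and leaving out each library. The fit was tested on simulated data.

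Replicates are separate mice. The comparison, the rule for named genes and the gene lists were chosen with earlier results of these data known. Named genes are Ogfod1 and Rps23; the 12 protein-coding called genes with the largest change in each direction among those with at least 10 CPM in the higher group; the 5 most abundant in each direction; and up to 4 called genes of each list, or 2 where none was called. Genes outside this rule (Slfn5, Ifitm3, Ryr2, Meis1, Mpo, Kit, Cpa3, Iglc3 and bare list members) were named after their values were seen. A few genes that met the rule are not reported here. No duplicate libraries were found.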

Additional observations from a re-analysis of the deposited data

Results flagged for a closer look

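Of 152 groups of 5 libraries examined for the named genes, 8 held a library whose gap to its nearest neighbour exceeded the 95% critical value of Dixon's test. Chance flags about 1 group in 20. Library sgOgfod1 replicate 1 was high for Gprasp2, at 30.8 CPM against 2.72 to 9.42 CPM in the other sgOgfod1 libraries. The same library was low for C1qc, at 3.08 CPM against 4.94 to 5.57 CPM. Replicate 4 of sgOgfod1 was low for Col4a1, at 2.42 CPM against 7.88 to 9.13 CPM, and high for Rps23, at 132 CPM against 91.2 to 97.6 CPM. Hgf was low in sgOgfod1 replicate 3, at 12.3 CPM against 20.5 to 22.7 CPM, and Emilin1 was high in sgOgfod1 replicate 5, at 86.1 CPM against 58.7 to 64.4 CPM. Among sgScramble libraries, Tln2 was low in replicate 2, at 13.4 CPM against 21.6 to 24.1 CPM, and Ccl2 was high in replicate 3, at 1.82 CPM against 0.783 to 1.03 CPM. Each of these genes kept its call and sign in at least 8 of the 10 fits that left out 1 library, apart from Rps23, which was not called.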

How the results depend on the processing

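For the 497 genes under vehicle, DESeq2 gave 1015, the 4-group fit 25 and the 6 mice with a footprint library 116; leaving out 1 library gave 259 to 557. The count stayed within 1.5 times with RLE scaling, no filter, a filter at a mean of 1 CPM, voom, protein-coding genes alone and the replicate block, which gave 439. Same-numbered libraries did not deviate together (correlations of -0.118, -0.0257, -0.101, 0.0485 and 0.103), so the block pairs mice by number only. Ogfod1 kept its call except in the 4-group fit, at -1.07 on the log2 scale; leaving out 1 library gave -1.11 to -1.01. For the 13 treated genes, DESeq2 gave 173, the 4-group fit 84, the replicate block 0, and the fit without the pair that stood apart, chosen after seeing the data, 39. The interaction had 0 genes in edgeR and 18 in DESeq2. For the 331 footprint genes, no filter gave 1012, DESeq2 588, the 6 vehicle libraries alone 605 and the replicate block 94; leaving out 1 library gave 70 to 335. The causes were not tested. Of 75 named calls, 69 were lost in the 4-group fit, 50 with the footprint mice, 13 with no filter, 11 with the block and 5 with voom, and none changed sign. These fits reuse the same vehicle libraries, so the kept signs are no further support. Low genes limit what can be seen: 43 of the higher genes averaged under 1 CPM.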
